A study of Homo sapiens with 9 samples.

Results

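Small nucleolar RNAs and the transcripts that host them were measured in ES-2 cells, a human ovarian cancer cell line. The members were the rows of the deposited table named SNORD (box C/D), SNORA (box H/ACA), SNHG or GAS5 that reached 0.5 RPKM in at least 3 of the 9 libraries. RPKM counts reads per 1000 bases of row length and per 1000000 reads of the library. Of 309 rows with such names, 240 reached that level: 140 of 174 box C/D rows, 79 of 112 box H/ACA rows and 21 of 23 host rows. The whole table held 32997 rows, of which 16533 reached the same level and were tested together. The members were thus chosen by their measured RPKM, so their presence above 0.5 RPKM is no finding. SNORA11 and SNORA19 lay just inside the threshold, with third-highest values of 0.502 and 0.508 RPKM. SNORA72, at 0.484 RPKM, and SNORD127, at 0.479 RPKM, lay just outside it.

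The 3 groups, with 3 libraries each, were ES-2 cells that overexpressed the deubiquitinase OTUB2, ES-2 cells that overexpressed SNX29P2, a pseudogene of a sorting nexin, and ES-2 cells with an empty vector. All were grown in RPMI-1640 with 10% fetal bovine serum without further treatment, and total RNA was extracted with TRIzol. The labels name neither the promoter of the constructs nor the number of clones, and nothing in them states that replicates are independent cultures. A p-value here therefore reflects the scatter among these 9 libraries, which could be technical. Each library also carries a number from 1 to 3, and the labels do not say what it marks.

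Small nucleolar RNAs (snoRNAs) are short, stable RNAs that work in the nucleolus. Box C/D snoRNAs bind fibrillarin and guide methylation of the ribose in ribosomal RNA, box H/ACA snoRNAs bind dyskerin and guide the change of uridine to pseudouridine, and a few of each class act in cleavage of the ribosomal RNA precursor. In human cells most are cut from the introns of a host gene after splicing. Many hosts encode ribosomal proteins or nucleolar proteins, while the SNHG genes and GAS5 give spliced RNAs without a long reading frame, several of which are degraded by nonsense-mediated decay.

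The sequences of 11 snoRNAs are shown, 9 box C/D and 2 box H/ACA, because the results turn on them or on their relatives. They are the GENCODE release 29 transcripts on GRCh38, read 5′ to 3′ on the strand of the gene. Capitals mark the box C motif TGATGA within the first 20 bases, the box D motif CTGA in the last 15 bases, or the ACA motif in the last 8 bases. SNORD49B, the row with the most reads, lies in LRRC75A-AS1 at chr17:16439505-16439576 on the plus strand, and its relative SNORD49A at chr17:16440036-16440106.
SNORD49B: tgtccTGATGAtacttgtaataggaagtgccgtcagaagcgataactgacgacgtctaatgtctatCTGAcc
SNORD49A: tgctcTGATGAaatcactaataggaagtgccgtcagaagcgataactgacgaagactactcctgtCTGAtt
SNORD58B, the row with the next most reads, lies in RPL17 on the minus strand at chr18:49491664-49491729, with SNORD58A at chr18:49491283-49491347 and SNORD58C at chr18:49489245-49489308.
SNORD58B: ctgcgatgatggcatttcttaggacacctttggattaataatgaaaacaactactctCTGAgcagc
SNORD58A: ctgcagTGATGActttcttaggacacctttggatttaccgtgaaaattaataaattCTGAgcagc
SNORD58C: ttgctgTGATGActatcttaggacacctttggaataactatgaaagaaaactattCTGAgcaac
SNORD45A, SNORD45B and SNORD45C lie on the plus strand of RABGGTB at chr1:75787889-75787972, chr1:75789477-75789548 and chr1:75787072-75787150.
SNORD45A: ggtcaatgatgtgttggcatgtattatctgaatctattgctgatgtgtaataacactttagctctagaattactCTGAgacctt
SNORD45B: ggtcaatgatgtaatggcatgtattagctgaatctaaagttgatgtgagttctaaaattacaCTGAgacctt
SNORD45C: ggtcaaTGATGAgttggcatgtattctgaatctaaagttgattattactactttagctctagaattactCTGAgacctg
SNORD21 lies in RPL5 at chr1:92837289-92837383 on the plus strand.
SNORD21: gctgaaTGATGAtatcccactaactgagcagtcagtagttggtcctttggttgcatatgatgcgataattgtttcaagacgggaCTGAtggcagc
SNORA73B and SNORA73A, the U17 snoRNAs that act in processing of the small-subunit ribosomal RNA, lie in SNHG3 on the plus strand at chr1:28508559-28508762 and chr1:28507366-28507571.
SNORA73B: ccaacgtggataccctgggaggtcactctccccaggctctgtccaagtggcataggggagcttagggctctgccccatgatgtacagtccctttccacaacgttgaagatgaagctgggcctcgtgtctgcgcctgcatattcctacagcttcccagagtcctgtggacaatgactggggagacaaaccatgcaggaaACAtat
SNORA73A: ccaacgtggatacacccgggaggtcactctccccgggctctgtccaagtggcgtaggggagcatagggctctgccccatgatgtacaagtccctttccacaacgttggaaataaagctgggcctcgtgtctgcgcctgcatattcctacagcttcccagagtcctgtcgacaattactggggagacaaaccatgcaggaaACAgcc

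In a global alignment SNORD49A and SNORD49B were identical at 79.2% of positions, SNORD58A and SNORD58B at 78.8%, SNORD45A and SNORD45C at 84.5%, SNORD45A and SNORD45B at 75.0%, and SNORA73A and SNORA73B at 93.2%. How the counting treated reads that match several places is not given in the sources used here, so values of the SNORA73 pair in particular are uncertain. Across the members with a transcript at 1 locus, TGATGA was found in 75 of 114 box C/D snoRNAs (65.8%) and in 0 of 44 box H/ACA snoRNAs. CTGA was found in 107 of the 114 box C/D snoRNAs (93.9%) and in 2 of the 44 box H/ACA snoRNAs (4.55%). ACA closed 41 of 44 box H/ACA snoRNAs (93.2%), against 7 of 114 box C/D snoRNAs (6.14%). SNORD45A, SNORD45B and SNORD58B hold CTGA without an exact TGATGA in that window.

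The libraries held 38504854 to 48551215 reads in genes, recovered from the RPKM steps. OTUB2 ran from 37.6 to 42.6 RPKM in the OTUB2 libraries and from 1.04 to 1.58 RPKM in all others, and SNX29P2 ran from 41.0 to 55.1 RPKM in the SNX29P2 libraries and from 0 to 0.0665 RPKM elsewhere. KRT8, KRT18 and VIM were expressed in every library, at no less than 25.7, 100.6 and 974.9 RPKM, while EPCAM stayed at or under 0.0192 RPKM. Of the leukocyte markers, PTPRC, CD3E, CD14 and ITGAM had 0.332, 0.282, 0.475 and 0.133 RPKM in OTUB2 replicate 1 and at most 0.0694 RPKM in the other libraries. CD68 ran from 28.6 to 35.3 RPKM in all 9. Of the endothelial markers, CDH5 ran from 17.6 to 23.6 RPKM, VWF did not pass 0.00408 RPKM, and PECAM1 had 0.125 RPKM in OTUB2 replicate 1 and at most 0.0292 RPKM in the other libraries. Without OTUB2 replicate 1 the count of members called between groups was still 0.

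All snoRNA members together took 0.0306 to 0.0353% of the reads of a library, and the hosts 0.0884 to 0.0999%. Box C/D rows had a median of 4.61 RPKM and 24.6 reads, box H/ACA rows 2.64 RPKM and 30.2 reads, and hosts 12.4 RPKM and 1355 reads, over lengths of 86, 198 and 2813 bases in the median. Because the rows are short, the level rule admits very few reads: 1 read in a row of 100 bases is worth 0.206 to 0.260 RPKM. On average 47 of the 140 box C/D rows and 20 of the 79 box H/ACA rows had fewer than 10 reads, and 22 and 7 of them had 0 reads in some library. The labels name a standard Illumina preparation and give no fragment size, and how much of the short mature snoRNA it kept was not tested. The U3 rows, which match the abundant snoRNA of early ribosomal RNA cleavage, did not reach the threshold. SNORD3A averaged 5.11 reads (named after its values were seen).

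Reads were concentrated in a few box C/D rows. SNORD49B alone took 20.1% of box C/D reads and the top 5 rows 48.8%. Its level was 628, 555 and 581 RPKM in the OTUB2 libraries, 620, 585 and 545 RPKM in the SNX29P2 libraries, and 587, 697 and 690 RPKM in the vector libraries. Vector replicates 2 and 3 were the highest of the 9 libraries, and vector replicate 1 lay within the range of the other groups, so the groups overlapped. SNORD58B averaged 376 RPKM over the 9 libraries, SNORD86 in NOP56, a core protein gene of box C/D particles, 248 RPKM, SNORD25 97.0 RPKM and SNORD22 38.4 RPKM, both SNORD25 and SNORD22 in SNHG1. These rows differ widely from their relatives in the same host: SNORD49A averaged 48.9 RPKM, SNORD58A 11.9 RPKM and SNORD58C 15.7 RPKM, although the printed sequences are alike over most of their length.

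Among box H/ACA rows the most reads fell on SNORA40, SNORA18, SNORA70, SNORA67 and SNORA63, with 472, 300, 278, 256 and 254 reads on average. Each of these rows sums several loci of 1 name, up to 30 for SNORA70, so their RPKM, which ran from 1.72 RPKM for SNORA70 to 7.0 RPKM for SNORA18, is an average over loci and says nothing of a single gene. In all, 34 box H/ACA rows and 22 box C/D rows covered several loci. The highest level of a box H/ACA row was 38.2 RPKM for SNORA61 in SNHG12. A few rows also share reads with another member. SNORA50 and SNORA50C had equal reads in 8 of 9 libraries, SNORA17 and SNORA17A in 5, and SNORD19 and SNORD19B overlap, so these pairs are not separate measurements.

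Hosts spread over a wide range. SNHG6 was highest, with 53.1 ± 1.147 RPKM in OTUB2, 50.6 ± 5.32 in SNX29P2 and 56.5 ± 4.25 in vector libraries (SD, n = 3 each). SNHG1, SNHG8 and GAS5 followed, at 36.6 ± 3.31, 33.7 ± 7.53 and 30.8 ± 3.43 RPKM in OTUB2 libraries, 39.2 ± 2.42, 32.4 ± 8.32 and 31.7 ± 2.92 RPKM in SNX29P2 libraries, and 38.7 ± 4.65, 30.0 ± 3.08 and 29.9 ± 3.49 RPKM in vector libraries. The libraries of SNHG8 and GAS5 overlapped in every group, and those of SNHG8 and SNHG1 in the OTUB2 and SNX29P2 groups, so these neighbours in the order are not separated by their spread. SNHG16, SNHG7, SNHG3, SNHG19, SNHG4, SNHG15, SNHG17, SNHG5, SNHG12 and SNHG25 had group means from 8.68 to 23.7 RPKM. SNHG21, SNHG18, SNHG11, SNHG10, SNHG20, SNHG9 and SNHG14 had group means from 1.46 to 4.47 RPKM. SNHG22 and SNHG23 did not reach the threshold.

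**Figure D1:**
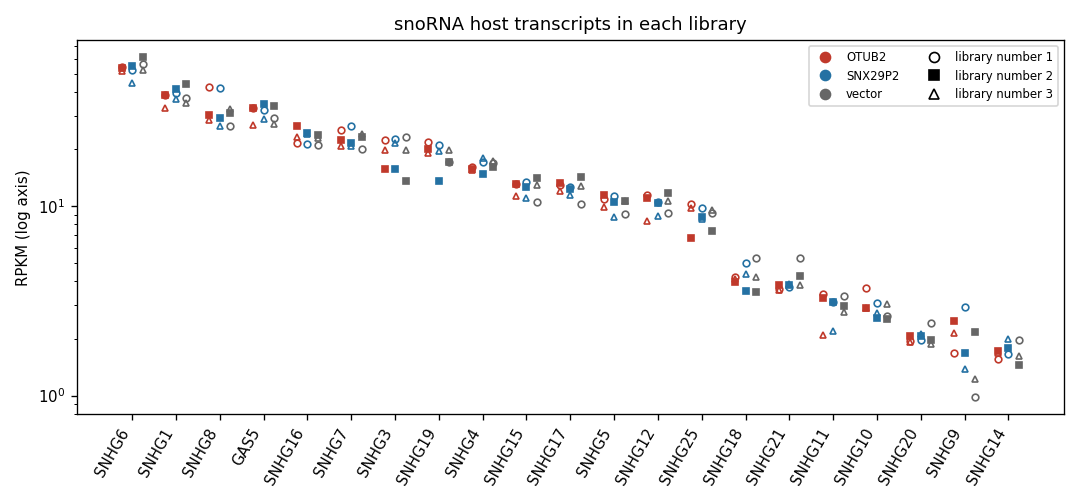
Each of the 21 host transcripts in the 9 libraries, in RPKM on a log axis, with hosts ordered by level. Colours give the group and symbols the library number. The libraries of the groups overlap for every host, while for SNHG3 the 3 squares, the libraries numbered 2, lie below the other symbols.

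By position, 162 snoRNAs at 1 locus lay in 84 host genes. The level of a snoRNA row was usually below that of its host row: the median ratio of the 2 RPKM means was 0.104, and 19 snoRNAs were above their host. The highest ratios were 8.18 for SNORD116-4 in SNHG14, 6.33 for SNORD49B in LRRC75A-AS1, 3.79 for SNORD86 in NOP56 and 3.74 for SNORA61 in SNHG12. The median ratio was 0.531 for 45 snoRNAs in SNHG hosts and 0.0446 for 109 in protein-coding hosts. It was 0.0330 for the 47 of those in ribosomal protein genes. None of the snoRNAs placed by position lay in GAS5. Median snoRNA levels had the opposite order, at 2.88 RPKM in SNHG hosts and 11.8 RPKM in ribosomal protein hosts. The ribosomal protein hosts had a median of 347 RPKM. Of the 45, 16 were SNORD116 copies in SNHG14 alone, a host at 1.71 RPKM, and 14 of these averaged fewer than 10 reads. The SNHG medians thus rest in large part on 1 array. For 68 of the 162 the snoRNA lies wholly inside annotated host exons, for example of transcripts that keep an intron, so host reads and snoRNA reads cannot be told apart there. The median ratio was 0.105 for those 68 and 0.104 for the 77 that lie outside host exons. The levels behind these ratios differed. Median snoRNA and host levels were 13.2 and 98.7 RPKM for the 68, and 1.64 and 19.3 RPKM for the 77. Some of the 77, SNORD125 among them, lie in exons of a row other than the host. These ratios are descriptions, with no test, because snoRNAs of 1 host share its reads.

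**Figure D2:**
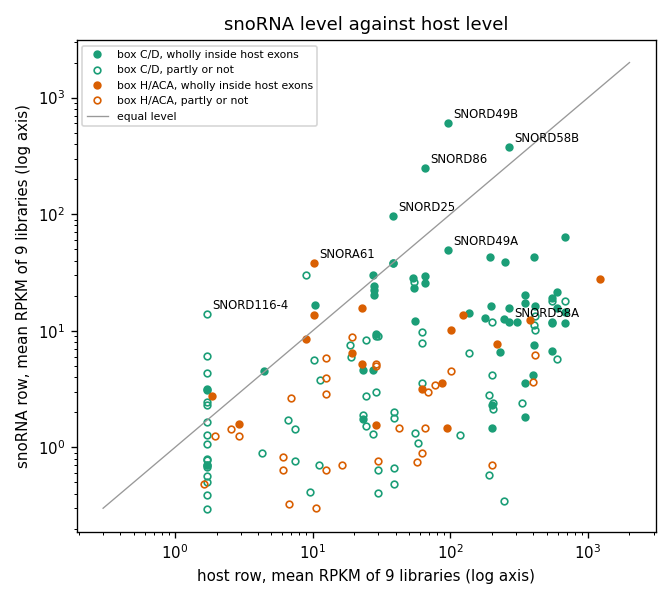
Mean RPKM over 9 libraries of 162 snoRNA rows (vertical) against that of their host rows (horizontal), both on log axes, with a line of equal level. Filled symbols lie wholly inside annotated host exons. Most points lie below the line, and SNORD49B, SNORD58B, SNORD86, SNORD25, SNORA61 and SNORD116-4 lie above it.

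The imprinted SNORD116 cluster, a tandem array of box C/D snoRNAs best known from the Prader-Willi region and neuronal tissue, was present at low level. Of 25 SNORD116 rows, 16 passed the threshold, with means from 0.293 to 14.0 RPKM, and 14 of those 16 averaged fewer than 10 reads. SNORD116-4 held 42.7% of the reads of the cluster, at 8.35, 12.01 and 15.9 RPKM in OTUB2 libraries, 15.0, 14.1 and 15.2 RPKM in SNX29P2 libraries and 17.8, 12.99 and 14.6 RPKM in vector libraries. The groups overlapped. Its host SNHG14 averaged 1.65 ± 0.0860, 1.81 ± 0.169 and 1.67 ± 0.258 RPKM in OTUB2, SNX29P2 and vector libraries (SD, n = 3 each).

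The first comparison asked whether OTUB2 changed the members. No member passed an adjusted p of 0.05 in limma, against 0.0181% of all rows tested. At an unadjusted p under 0.05, limma gave 20 of 240 members (8.33%), 15 higher and 5 lower, against 6.73% of all rows. At the same threshold limma voom on the recovered reads gave 6 members, and 0 after adjustment. The voom share over all rows is not reported here for the group comparisons, so voom counts cannot be set against the limma shares. The smallest adjusted p of a member was 0.598. Median log2 differences, OTUB2 over vector, were 0.06 for box C/D, 0.03 for box H/ACA and 0.02 for hosts, beside 0.01 for all rows. In 15 members (6.25%) the 2 groups had no overlap, against 10.8% of all rows. In bulk RNA, fewer cells with a transcript and less of it per cell cannot be told apart.

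Differences ran from -1.93 to 2.62 over all members and from -1.07 to 1.05 over the 173 members with at least 10 reads on average, from which the rows below were taken. SNORD73A, in RPS3A, had 19.6, 15.2 and 12.7 RPKM in OTUB2 libraries, against 14.4, 5.59 and 5.21 RPKM in vector libraries. OTUB2 replicate 3 lay below vector replicate 1, so the groups overlapped, and the log2 difference was 1.05 ± 0.35 (SE; limma adjusted p = 0.677). SNORD54, in RPS20, had 24.3, 20.6 and 14.6 RPKM in OTUB2 libraries, against 16.1, 10.1 and 8.66 RPKM in vector libraries, which also overlapped (0.79, adjusted p = 0.698). At the other end stood SNORD116-22 (-0.72), SNORD10 in EIF4A1 (-0.58), SNORA79 (-1.07) and SNORA46 (-0.83), with adjusted p from limma between 0.704 and 0.817. SNORA78, in SNHG9, and the 4-locus row SNORA15 differed by 0.67 and 0.54 (adjusted p = 0.870 and 0.817). Among hosts the differences ran from -0.25 to 0.55, the highest for SNHG9, with 1.67, 2.47 and 2.14 RPKM in OTUB2 and 0.978, 2.17 and 1.23 RPKM in vector libraries. Those of GAS5 and SNHG3 were 0.04, with a 95% interval from -0.21 to 0.29, and 0.05, from -0.43 to 0.52.

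SNX29P2 was compared with the same vector libraries, so the vector values enter both comparisons. No member passed the adjusted threshold in limma (0.0363% of all rows did), and the smallest adjusted p was 0.488. Unadjusted, limma gave 23 members (9.58%), 17 higher and 6 lower, against 8.21% of all rows. Voom, whose share over all rows is not reported here, gave 5 and, after adjustment, 0. The medians were 0.09 for box C/D, 0.06 for box H/ACA and 0.01 for hosts, beside 0.01 for all rows, and 20 members did not overlap between the groups (8.33%, against 11.7% of all rows). The H/ACA row SNORA71C, in SNHG17, had 8.14, 9.34 and 6.48 RPKM in SNX29P2 libraries, against 3.85, 4.65 and 5.96 RPKM in vector libraries. All 3 SNX29P2 values lay above all 3 vector values, but the log2 difference of 0.72 ± 0.20 (SE) had a limma adjusted p of 0.493. SNORD12C (0.87), SNORD73A (0.84) and SNORA78 (0.87) were the other highest rows, and SNORD94 (-0.64), SNORD14E (-0.56), SNORA3B (-0.40) and SNORA1 (-0.39) the lowest, with adjusted p from 0.586 to 0.831. The sign of SNORD94 rests on SNX29P2 replicate 2, which had 2 reads: without it the difference was 0.04. Hosts ran from -0.21 to 0.43.

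OTUB2 was also set directly against SNX29P2. No member passed the adjusted threshold in limma, against 0.0242% of all rows, and the smallest adjusted p rounded to 1.00. At an unadjusted p under 0.05, limma gave 21 members (8.75%), 9 higher and 12 lower, against 2.43% of all rows. Voom, whose share over all rows is not reported here, gave 5, and 0 after adjustment. Same-numbered libraries of these groups deviate together, and with the number as a block the count of called members was still 0. The shares, SE values and p-values given here came from the fit without that block, which leaves any effect of the number in the scatter. Unadjusted shares with the block are not reported here. SNORA71C had 4.93, 5.38 and 3.55 RPKM in OTUB2 libraries, against the higher SNX29P2 values above, with no overlap (-0.78 ± 0.20, SE; limma adjusted p = 1.00). SNORD62B, in PRRC2B, had 7.67, 7.42 and 5.53 RPKM in OTUB2 libraries, against 11.9, 11.1 and 10.8 RPKM in SNX29P2 libraries, again without overlap (-0.72, adjusted p = 1.00). Other extremes were SNORD1C (0.69), SNORD94 (0.59), SNORA71B (0.58), SNORA56 (0.47), SNORD15B (-0.68) and SNORA79 (-0.82). Without SNX29P2 replicate 2, SNORD94 turned to -0.09. Hosts ran from -0.12 to 0.19, the narrowest range of the 3 comparisons.

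**Figure D3:**
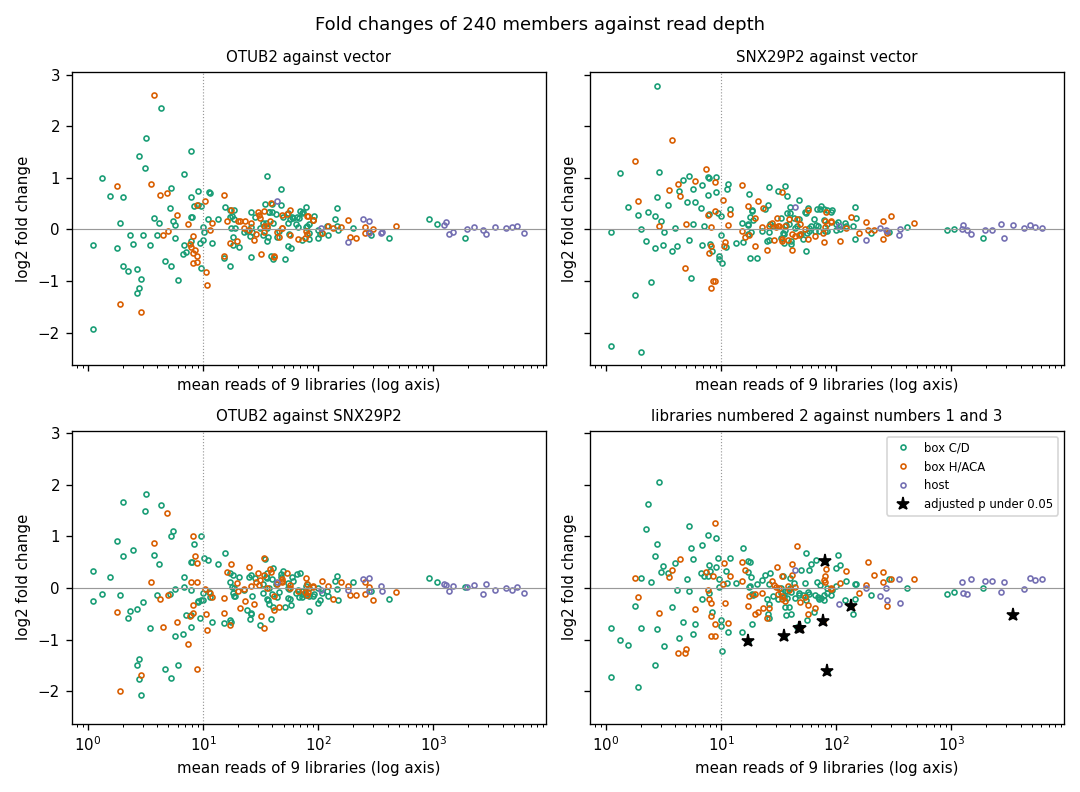
Log2 fold changes of the 240 members (vertical) against mean reads per library (horizontal, log axis) in 4 comparisons, with the dotted line at 10 reads. Rows under 10 reads spread widely, hosts lie near 0, and stars, adjusted p under 0.05, appear in the panel of library numbers, where all but SNORD14D lie below 0.

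How far these data can resolve a change depended on the class. The 95% interval of a group difference had a median half-width of 0.27 on the log2 scale for hosts, 0.67 for box C/D and 0.70 for box H/ACA rows. For OTUB2 over vector the interval lay wholly between -1 and 1 in 20 of 21 hosts, 73 of 140 box C/D rows and 48 of 79 box H/ACA rows. For the remaining rows the data do not bound the difference within 1 log2 unit. The chi-square of reads within groups, per degree of freedom, had a median of 1.77 for rows under 10 reads, 2.06 from 10 to 100 reads and 6.15 above 100, where 1 would be counting error of independent reads. Reads here need not be independent, and the part of counting error in this spread was not tested.

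Libraries were then compared by number within groups, 2 against the mean of 1 and 3. The split was proposed with earlier results of these data known. In limma with group and number as terms, 9 of 240 members (3.75%) had an adjusted p under 0.05, 1 higher and 8 lower, against 1.88% of all rows, of which 204 were higher and 107 lower. SNORA50 and SNORA50C count the same locus and are 1 observation. The number 2 libraries had 48551215, 39940471 and 38504854 reads in genes in the OTUB2, SNX29P2 and vector groups, the highest of its group in OTUB2 and the lowest in SNX29P2 and vector cells. At an unadjusted p under 0.05 there were 60 members (25%), against 22.7% of all rows. Number 2 was the lowest library in every group in 19 members (7.92%, against 10.4% of all rows) and the highest in 18 (7.5%, against 14.2%). Leaving out 1 library at a time gave 0 to 23 called members. It gave 23 without vector replicate 1, all 9 among them, 1 without SNX29P2 replicate 1 or without SNX29P2 replicate 2, and 0 without any 1 of the other 6. The share of all rows called in these fits is not reported here, so the counts are no result about the members. Each of the 9 kept its sign in every one of these fits. In each of the 9, all number 2 libraries lay on 1 side of all other libraries, so the kept sign is no further support. The differences ran from -0.57 to -0.45 for SNHG3 and from -1.78 to -1.39 for SNORD45A.

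SNHG3 had 15.7, 15.6 and 13.6 RPKM in the number 2 libraries of the OTUB2, SNX29P2 and vector groups. The libraries numbered 1 and 3 had 22.3 and 19.8 RPKM in OTUB2, 22.4 and 21.4 RPKM in SNX29P2, and 23.1 and 19.8 RPKM in vector cells. All 3 values of number 2 lay below all 6 others, with 3403 reads on average, and the log2 difference was -0.52 ± 0.06 (SE; limma adjusted p = 0.0235). SNORA73B, which lies outside SNHG3 exons, had 5.65, 6.75 and 6.75 RPKM in number 2, against 10.9 and 8.59, 8.87 and 10.6, and 11.4 and 9.72 RPKM in numbers 1 and 3 of the OTUB2, SNX29P2 and vector groups. Again number 2 lay below every other library (-0.64, adjusted p = 0.0370). Its near copy SNORA73A, which lies inside SNHG3 exons, differed by -0.33 and was not called.

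Of the called members SNORD45A differed most. It had 8.58, 8.94 and 9.89 RPKM in number 2 of the OTUB2, SNX29P2 and vector groups, against 31.4 and 18.8, 34.3 and 41.9, and 24.5 and 24.2 RPKM in numbers 1 and 3. No number 2 library reached the level of any other library, with 35, 30 and 32 reads against 63 to 166 reads, and the log2 difference was -1.62 ± 0.19 (SE; limma adjusted p = 0.0267). Its host RABGGTB, which encodes a subunit of the enzyme that attaches lipid to Rab proteins, averaged 24.6 RPKM in number 2 and 29.2 RPKM in numbers 1 and 3 (-0.24, adjusted p = 0.0744). The relatives from the same host, SNORD45B (-0.47) and SNORD45C (-0.10), were not called. The 3 snoRNAs of RABGGTB thus had different values in the same libraries, and all 3 lie inside annotated host exons.

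**Figure D4:**
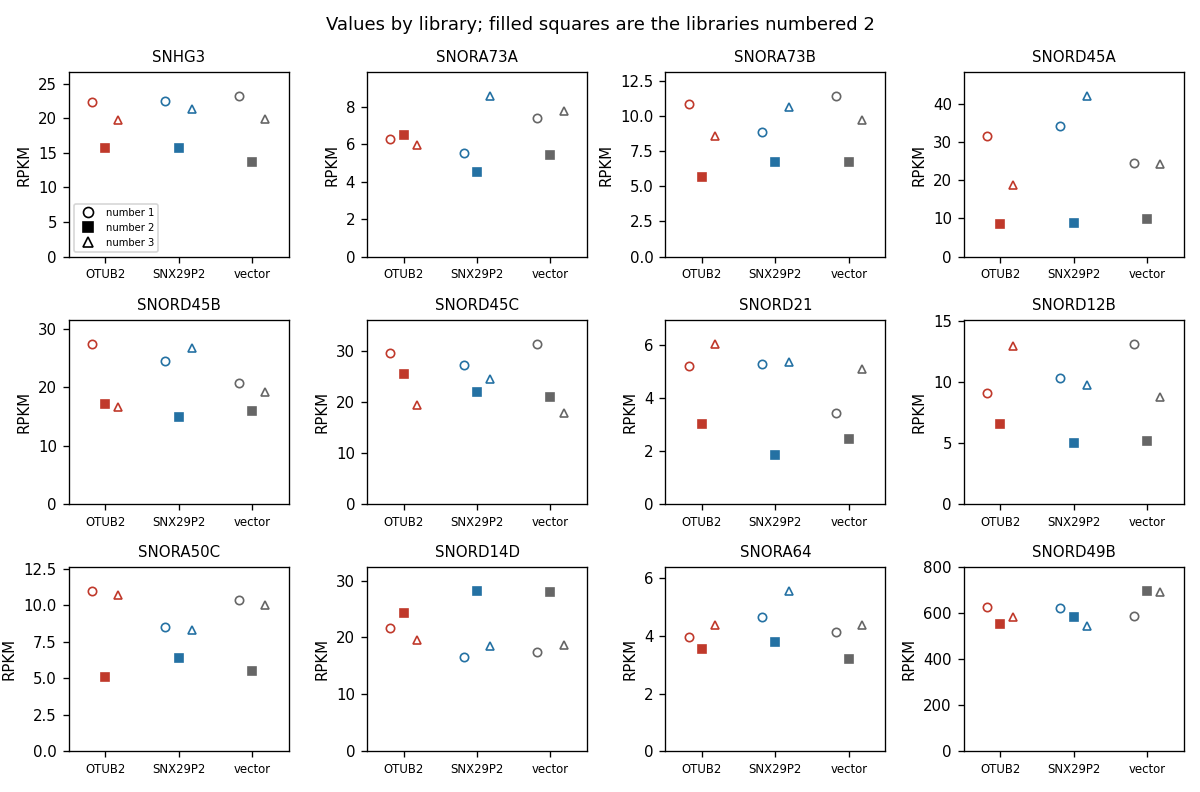
RPKM of 12 members in each library, each panel with its own axis from 0, with groups from left to right and filled squares for number 2. In SNHG3, SNORA73B, SNORD45A, SNORD21, SNORD12B, SNORA50C and SNORA64 every filled square lies below every open symbol. In SNORD14D every filled square lies above them, and in SNORD49B the symbols mix.

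SNORD21 had 3.04, 1.84 and 2.46 RPKM in number 2 of the OTUB2, SNX29P2 and vector groups, against 3.45 to 6.06 RPKM in numbers 1 and 3 (-1.03, limma adjusted p = 0.0352), on 7 to 24 reads a library. Its host RPL5, whose exons contain it, did not move with it (-0.00, limma adjusted p = 0.987). Reads of snoRNA and host cannot be told apart there. SNORD12B, in the noncoding ZFAS1, had 6.56, 4.95 and 5.14 RPKM in number 2, against 8.77 to 13.1 RPKM in numbers 1 and 3 (-0.92, adjusted p = 0.0453), while ZFAS1 differed by -0.05. SNORA50C, in SNHG25, had 5.11, 6.40 and 5.47 RPKM in number 2, against 8.29 to 11.0 RPKM (-0.78, limma adjusted p = 0.0352). SNHG25, whose exons contain SNORA50C, differed by -0.32 (limma adjusted p = 0.109). Of the other snoRNAs in these hosts, SNORD12C in ZFAS1 differed by -0.86, SNORD12 in ZFAS1 by -0.06 and SNORD104 in SNHG25 by -0.13. None of these was called. For SNORD21, SNORD12B and SNORA50C the number 2 libraries lay below all others. The 6-locus row SNORA64 was lower by less (-0.35, limma adjusted p = 0.0492), also with number 2 below all other libraries.

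In limma only SNORD14D, a U14 snoRNA in the chaperone gene HSPA8, was called higher in number 2. It had 24.4, 28.2 and 28.1 RPKM there in the OTUB2, SNX29P2 and vector groups, against 16.5 to 21.7 RPKM in numbers 1 and 3 (0.52 ± 0.09, SE; limma adjusted p = 0.0479). HSPA8, whose exons contain it, averaged 710 RPKM in number 2 and 536 RPKM in numbers 1 and 3 (0.42, adjusted p = 0.0705). In the same host SNORD14C differed by 0.35 and SNORD14E, outside its exons, by 0.07. Further extremes that limma did not call were SNORA25 (0.81, limma adjusted p = 0.112), SNORD1C (0.77), SNORD5 (0.68), SNORA4 (0.50) and SNORD94 (-1.22). In voom on the recovered reads SNORA25 was called (0.94, adjusted p = 0.0386). Among the other hosts GAS5 differed by 0.20, with an adjusted p of 0.0799 in limma and 0.0382 in voom, and SNHG1 by 0.17 and SNHG16 by 0.16 (both 0.105 in limma). SNHG18 had 3.99, 3.57 and 3.53 RPKM in number 2 of the OTUB2, SNX29P2 and vector groups, against 4.12 to 5.31 RPKM in numbers 1 and 3, so number 2 lay below all 6 other libraries (-0.29, limma adjusted p = 0.121). Of the 4 members that voom called, against 7.17% of all rows, SNHG3 and SNORD45A were also called in limma, both lower, and SNORA25 and GAS5 were not, both higher. Over the 103 snoRNAs with a host and at least 10 reads, the log2 differences of snoRNA and host had a correlation of 0.42 across snoRNAs, which share hosts and libraries and in part the same reads. It was 0.19 over all 162, 0.41 for the 68 wholly inside host exons, 0.06 for the 77 outside them and -0.21 for the 47 in ribosomal protein hosts.

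The other numbers gave fewer calls. Number 1 against 2 and 3 gave 1 member, SNORD54 (0.67, limma adjusted p = 0.0463), against 0.0968% of all rows, and number 3 against 1 and 2 gave 0 members and 0 rows. At an unadjusted p under 0.05 these contrasts in limma gave 43 members (17.9%, against 17.2% of all rows) and 58 members (24.2%, against 14.4%). They were not run in voom.

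Genes that make and use snoRNAs were looked at as lists, chosen with earlier results of these data known. In the 3 group comparisons limma called no gene of these lists, and voom was not run on the lists. At an unadjusted p under 0.05 limma gave 0 genes in 5 of these 7 lists, 4 genes of end trimming in SNX29P2 over vector, and 1 and 2 genes of ribosomal RNA processing in OTUB2 and in SNX29P2 over vector, where 6.73 and 8.21% of all rows passed. The 4 box C/D core proteins had medians of 0.01, -0.01 and 0.01 for OTUB2 over vector, SNX29P2 over vector and OTUB2 over SNX29P2, and the 4 box H/ACA core proteins 0.09, 0.10 and 0.02. The smallest p in OTUB2 over vector within these lists belonged to NOP58, a box C/D core protein, and NOP10, a box H/ACA core protein. Their log2 differences were 0.10 and 0.16. Of the 12 assembly factors and 19 factors of end trimming and debranching, 5 and 16 were above 0 in OTUB2 over vector. In SNX29P2 over vector, with the same vector libraries, 5 and 17 were above 0. Of all rows, 52 and 53.6% were above 0 in these comparisons. Within these lists the smallest p in SNX29P2 over vector belonged to NUFIP1 and the exosome cofactor MPHOSPH6. Their log2 differences were 0.16 and 0.25. The medians of the trimming list were 0.09, 0.10 and -0.03. The 14 nonsense-mediated decay factors had medians of 0.03, 0.07 and -0.03, the 26 genes of ribosomal RNA processing 0.04, 0.08 and -0.02, and the 15 genes of RNA polymerase I 0.04, 0.02 and -0.01.

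By number, 2 of the 15 RNA polymerase I genes were called higher in number 2, against 204 of the 16533 rows called higher and 1.88% called in either direction. UBTF, which bends ribosomal DNA for transcription, averaged 23.8 RPKM in number 2 and 18.2 RPKM in numbers 1 and 3 (0.38, limma adjusted p = 0.0287), and the subunit gene CD3EAP 18.6 and 14.2 RPKM (0.38, adjusted p = 0.0250). CD3EAP overlaps another gene on the opposite strand, and without known strand handling its reads cannot be assigned to it with certainty. No gene of the other lists was called: closest were IMP3 (-0.24, adjusted p = 0.0631) of ribosomal RNA processing, PIH1D1 (-0.43, 0.0694) among assembly factors and the debranching enzyme gene DBR1 (0.21, 0.110).

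Other small noncoding RNAs gave a further comparison, with 13 of 38 rows in the table tested and 0 called in limma in all 4 comparisons (2, 3, 2 and 2 rows at an unadjusted p under 0.05, against 6.73, 8.21, 2.43 and 22.7% of all rows). SCARNA22, a guide RNA of the Cajal body, averaged 17.2 ± 1.31 RPKM in OTUB2 and 13.6 ± 0.779 RPKM in vector libraries (SD, n = 3 each; 0.33, limma adjusted p = 0.532). RMRP, the RNA of the mitochondrial RNA processing ribonuclease, averaged 4.88 ± 1.23 RPKM in SNX29P2 and 2.80 ± 0.547 RPKM in vector libraries (0.76, adjusted p = 0.502). RN7SL1, the RNA of the signal recognition particle, averaged 63.3 ± 12.7 RPKM in OTUB2 and 51.1 ± 3.70 RPKM in SNX29P2 libraries (0.29, adjusted p = 1.00). SCARNA13 averaged 0.574 RPKM in number 2 and 1.28 RPKM in numbers 1 and 3 (-1.05, adjusted p = 0.0558).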

How the data were processed

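The authors deposited their values for the 9 libraries as RPKM in 1 table that also lists exons and lengths. The submitters' processing notes name GRCh38 as the build. Neither aligner, counter, strand handling nor annotation release is given in the sources used here. Whole reads were recovered from the RPKM steps: 100% of values below 1000 reads were whole within 0.05 reads, and 58.1 to 60.4% of them were even, and single molecules can thus be counted more than once.

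The level rule of the members, 0.5 RPKM in 3 libraries, also selected the rows to test, on log2(RPKM + 0.1) with limma 3.58.1 (R 4.3.3) and a trended variance over all 9 libraries, with group as the term. This scale understates the fold change of low rows. The number contrast had group and number (3 levels) as terms. Calls were Benjamini-Hochberg adjusted p under 0.05 over all rows. The design named a count test for counts, but the table held RPKM, so limma was used. No per-sample column was left out. Members, lists and the number contrast were chosen with earlier results of these data known. Loci, hosts and host exons came from the positions in the deposited table. Gene types and the printed sequences came from GENCODE 29. Programs were checked on simulated data. Tables used pandas 2.3.3 and numpy 2.4.6 in python 3.11.15, and plots used matplotlib 3.10.9.

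Named were all hosts, the 5 rows with the most reads in each snoRNA class, every called member, the 2 highest and 2 lowest differences per class and comparison among rows with at least 10 reads, and from each list the called genes (up to 3) or the one with the smallest p. Relatives and hosts of these, and rows with high ratios to their host, were chosen after their values were seen. Same-numbered OTUB2 and SNX29P2 libraries correlated at 0.153 to 0.270 in their deviations from the group means, so the numbers pair these groups. For OTUB2 and vector this was 0.0506 to 0.193 and for SNX29P2 and vector -0.0178 to 0.151. The lowest value of each belonged to vector replicate 1, the only library that correlated best with another number. Vector replicates 2 and 3 had 0.104 to 0.193 with the same-numbered libraries of the other groups. Alternatives were pseudocounts of 0.01 and 1, other filters, median-of-ratios and quantile scaling, a robust variance, voom, the compared groups alone, a replicate block, number 2 as 1 term, each library left out and, added after seeing the data, no libraries numbered 2. A few genes that this rule or the marker lists would name are not reported here.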

Additional observations from a re-analysis of the deposited data

How the results depend on the processing

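The count of members called between groups was 0 in all 3 comparisons under every alternative run, including the replicate block (0 called; 8 of 9 libraries correlated best with their own number), voom, and no libraries numbered 2, which was chosen after seeing the data. Leaving out each library in turn gave 0 to 0. In the number contrast, limma called 9 members (3.75%), a larger share than among all rows (1.88%). Voom called 4, a smaller share than it called among all rows, and 2 of these (SNHG3 and SNORD45A) were among the 9. The limma count was 0 without a filter on low rows, where 7 rows of the whole table were called. It was 0 to 23 when 1 library was left out, and the share of all rows called there is not reported here. The cause was not tested. The box H/ACA median of OTUB2 over vector, 0.03, became -0.0563 without OTUB2 replicate 1 and ranged up to 0.0644 over the libraries left out. SNORD94 reversed without SNX29P2 replicate 2, to 0.039 for SNX29P2 over vector and -0.0921 for OTUB2 over SNX29P2, with the opposite ends of their ranges at -1.33 and 1.28 without SNX29P2 replicate 1. Fewer than 10 reads on average stood behind 47 of 140 box C/D and 20 of 79 box H/ACA rows.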
